A study of Mus musculus with 4 samples.

Results

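Lin28a, Lin28b, Hmga1, Hmga2, Igf2bp1, Igf2bp2, Igf2bp3, Trim71, Nr6a1 and Igf1r are 10 genes of the fetal growth programme that the microRNA let-7 holds down as development proceeds. They were taken by gene name from a deposited table of 55599 entries, on chromosomes 1 to 19 and with no filter on expression, and each name had 1 entry. Polyadenylated RNA had been sequenced from neurospheres, free-floating clusters of neural stem and progenitor cells in culture, started from the cortex of C57BL/6 embryos at embryonic day 12.5 and collected at passage 3. One group was wild type (WT, 2 libraries) and the other was knocked out for the long noncoding RNA LncBAR (LncBAR-KO, here KO, 2 libraries). LncBAR itself was not analysed here, so the KO label was not checked against its target gene. The labels name no other allele, treatment or agent, and nothing in them tells if replicates were separate embryos or cultures. P-values therefore rest on a spread between libraries that may be technical only.

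LIN28A and LIN28B are RNA-binding proteins that attach to let-7 precursors and keep mature let-7 from forming. Mature let-7 in turn pairs through its seed with sites in the 3′ untranslated regions (3′ UTRs) of target mRNAs, Lin28a and Lin28b included, and lowers their output. Early neural progenitors are known for high Lin28 and Hmga2 and low let-7, and the balance shifts the other way as they age. The present libraries hold no measurement of mature let-7, since they were made from polyadenylated RNA.

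The sequences show what links these genes to let-7. In the RefSeq table of mouse microRNAs (GRCm38.p6), 13 genes encode mature RNAs with the let-7 seed, bases 2 to 8, which is capitalised below. Of these, 11 genes encode the 9 names from let-7a to let-7i and miR-98, and 5 of the 9 are shown because they differ outside the seed. Mirlet7a-2 is not among the 11 genes.
let-7a-5p: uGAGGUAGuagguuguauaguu
let-7b-5p: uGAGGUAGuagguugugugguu
let-7d-5p: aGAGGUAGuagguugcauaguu
let-7g-5p: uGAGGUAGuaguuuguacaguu
miR-98-5p: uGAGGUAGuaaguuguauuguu
The zinc knuckles of LIN28 proteins are known to bind a GGAG motif in the loop of the let-7 precursor. Searched on the hairpin's own strand, GGAG stood in the loop between the mature arms in 8 of these 11 hairpins, and was missing from those of let-7b, let-7c-2 and miR-98. Of all 288 mouse hairpins of the same length range (83 to 108 bases), 44.8% held GGAG somewhere. The hairpin of let-7g, at chr9:106178840-106178927 on the plus strand of GRCm38, is shown as an example with GGAG in capitals.
let-7g hairpin: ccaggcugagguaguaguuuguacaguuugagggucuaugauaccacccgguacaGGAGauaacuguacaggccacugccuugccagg

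All 10 genes carried the complement of the let-7 seed in the 3′ UTR of their principal GENCODE M21 transcript. The motif CTACCTC was searched on the transcript strand, and a following A, which makes CTACCTCA, was counted as an 8-base match. The 10 genes held 31 matches, of which 17 were 8-base matches in 9 genes, and Hmga1 had only a 7-base match. Among 7999 mouse 3′ UTRs within the same length range (1178 to 7267 bases), 14.8% held the 7-base motif and 5.05% the 8-base motif. These genes are known as let-7 targets, so the motif is no independent result, and a match is not evidence that a site is used. Nr6a1, an orphan nuclear receptor that represses pluripotency genes, had the most matches, 8 in 4453 bases. Hmga2, Lin28b, Igf2bp1 and Trim71 had 4 each, Lin28a and Igf1r 2 each, and Hmga1, Igf2bp2 and Igf2bp3 1 each.

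The first match in the Hmga genes, the Igf2bp genes and Lin28b is printed below in mRNA sense, with the motif in capitals, because the comparison of levels turns on these genes.
Hmga2: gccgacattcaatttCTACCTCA
Hmga1: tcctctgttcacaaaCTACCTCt
Igf2bp1: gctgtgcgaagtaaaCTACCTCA
Igf2bp2: acacacaaataaaagCTACCTCA
Igf2bp3: tgcatttttactcaaCTACCTCA
Lin28b: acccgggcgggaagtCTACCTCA
In mm10 coordinates these stretches lie in 3′ UTR exons at chr10:120364224-120364246 (Hmga2, minus strand), chr17:27563277-27563299 (Hmga1, plus strand) and chr11:95961778-95961800 (Igf2bp1, minus strand). The others lie at chr16:22059473-22059495 (Igf2bp2), chr6:49086787-49086809 (Igf2bp3) and chr10:45381022-45381044 (Lin28b), each on the minus strand. The Hmga2 and Lin28b matches begin 21 and 36 bases after the stop codon, whereas the Igf2bp1 match begins at base 1715.

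**Figure D1:**
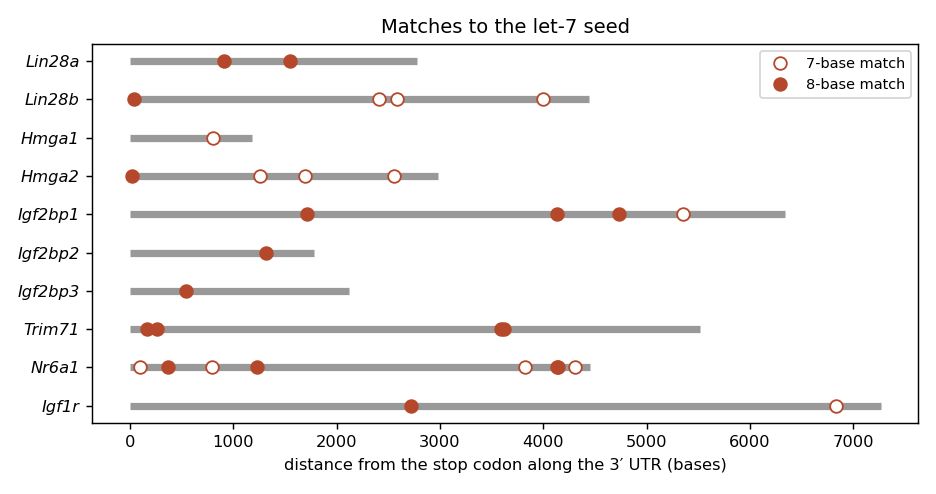
Each grey bar is the 3′ UTR of 1 gene, drawn to scale in bases from the stop codon, with filled circles for 8-base and open circles for 7-base matches to the let-7 seed. Nr6a1 has 8 matches, Trim71 has 4 that are all 8-base matches, and Hmga1 has 1 open circle.

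The libraries were close in depth, with total counts of 17244057 to 18280445. All 7 neural stem cell and radial glia markers examined (Sox2, Nes, Fabp7, Pax6, Hes1, Vim and Slc1a3) and the cortical markers Emx2 and Lhx2 had a mean of at least 1 FPKM, and the cortical marker Emx1 stayed below. FPKM is fragments per kilobase of gene length, scaled to library size. A level compared between genes in FPKM therefore rests on the length deposited for each gene. The microglial, endothelial and erythroid markers summed to at most 0.197 FPKM in any library. Those of meninges and fibroblasts summed to 0.420 to 0.717 FPKM. The erythroid markers Hba-a1 and Hbb-bt and the endothelial marker Cdh5 were listed at 0. The other endothelial markers were detected, Pecam1 with 9 to 13 counts and Cldn5 with 0 to 3. The 4 neuronal markers (Map2, Tubb3, Dcx and Rbfox3) summed to 45.7 to 46.8 FPKM, of which Map2 had a mean of 37.7 FPKM and Tubb3 of 6.65 FPKM. Pou5f1, Dppa4 and Zfp42, markers of pluripotent cells, in which Lin28a is also known to be high, had 0 counts in all 4 libraries. The other two genes of that marker list were detected, Nanog with 10 and 20 counts in the WT libraries, against 9 and 8 in the KO libraries, and the germ line gene Ddx4 with 44 to 71 counts. The 5 genes of the list summed to at most 1.57 FPKM in any library, above the sums of the microglial, endothelial, erythroid and fibroblast lists. Xist gave 36766 and 31563 counts in the WT libraries, against 7 and 4 in the KO libraries, and Ddx3y 0 and 0 against 1496 and 1847. Genotype and sex-chromosome content cannot be told apart in any comparison of KO with WT given here.

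By level the 10 genes spanned more than 3 orders of magnitude, and their order hardly differed between libraries. Hmga1 was highest at 53.4 to 59.8 FPKM, followed by Igf2bp3 (11.4 to 13.5), Igf2bp2 (11.0 to 11.4), Igf1r (8.26 to 9.98), Hmga2 (6.18 to 7.62) and Igf2bp1 (1.27 to 1.66). These 6 genes had a mean of at least 1 FPKM over the 4 libraries, and Nr6a1 (0.754 to 0.863), Trim71 (0.226 to 0.361), Lin28b (0.0126 to 0.0380) and Lin28a (0.0138 to 0.0144) did not. The first 8 kept this order in FPKM in each of the 4 libraries. The step from Igf2bp3 to Igf2bp2 was the narrowest of these, with a ratio of 1.23 in WT replicate 1 and of 1.00 in KO replicate 2, and Lin28b and Lin28a could not be ordered. Close ranks rest on the deposited gene lengths. For Igf1r that length is 16791 bases against 11409 in its principal transcript, and for Hmga2 6772 against 3710. The order with transcript lengths was not tested. Hmga1 stood above 97.2% of the 29222 entries with at least 1 count, Hmga2 above 77.0%, Lin28b above 13.1% and Lin28a above 7.15%.

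**Figure D2:**
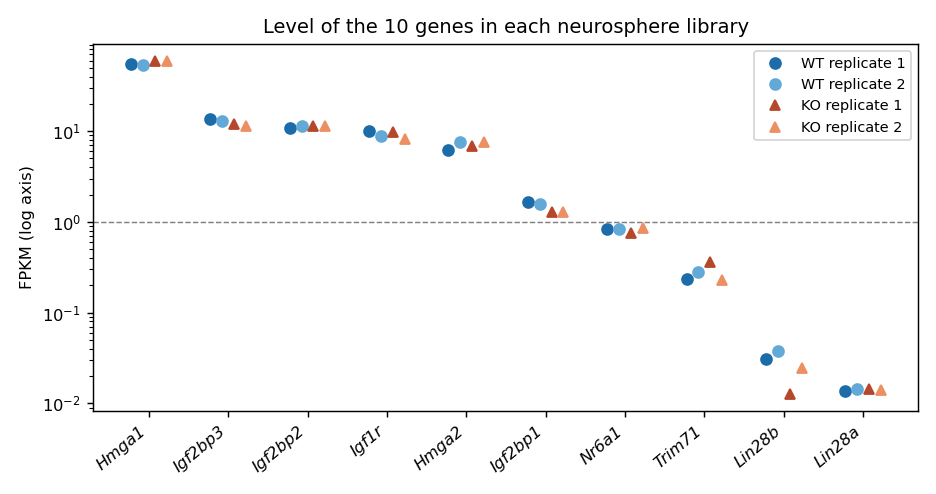
Level of each gene in FPKM on a log axis, with circles for the 2 WT and triangles for the 2 KO libraries, and a dashed line at 1 FPKM. Hmga1 lies at 53.4 to 59.8 FPKM in all 4 libraries and Lin28a at 0.0138 to 0.0144.

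None of the 10 genes was called different between KO and WT by edgeR's quasi-likelihood test with Benjamini-Hochberg adjustment over 29222 entries. The smallest adjusted p among them in that test was 0.880. With 2 libraries per genotype, a gene that was not called is not thereby shown to be unchanged. Over all entries that test called 31 (0.106%), so no called gene is the usual outcome for a list of 10. At an unadjusted p under 0.05 there were 2 of the 10, Igf2bp1 and Igf2bp3, against 4.6% of all entries. DESeq2 also called none of the 10, with 0 at an unadjusted p under 0.05. Limma on log2(FPKM + 1) called none either. It had 2 at an unadjusted p under 0.05, but these were Hmga1 and Igf2bp3, and Igf2bp1 was not among them. The log2 fold change was positive for 5 genes and negative for 5, with a median of -0.02 beside 0.00 over all entries tested. In 4 of the 10 the KO and WT libraries did not overlap in TMM-scaled counts, beside 30.5% of all entries (15.3% higher and 15.1% lower in KO). These were Hmga1, higher in KO, and Igf2bp1, Igf2bp3 and Lin28b, lower in KO. The call count over all entries was unstable. It was 13 in DESeq2, 9 with a mean FPKM of at least 1, and 8, 7, 17 and 13 without WT replicate 1, WT replicate 2, KO replicate 1 and KO replicate 2.

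The let-7 antagonists themselves were at the edge of detection. Lin28a, the form best known from pluripotent cells, had exactly 1 count in every library, under a floor of 3 counts, so no fold change is given. Lin28b, the form encoded on chromosome 10, gave 5 and 6 counts in the WT libraries, against 2 and 4 in the KO libraries. Summed by genotype, the ratio of KO to WT was 0.537, and its exact 95% interval of 0.163 to 1.59 covers counting error only. At this depth neither a fall nor a rise of Lin28b of moderate size was detectable. In bulk RNA, a few cells with much Lin28b and many cells with little cannot be told apart, and the same holds for every gene below.

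Hmga1 and Hmga2 encode small architectural chromatin proteins that bind AT-rich DNA through AT-hooks, and Hmga2 is known to support self-renewal of fetal neural stem cells. Hmga2 was at 6.18 and 7.62 FPKM in WT and 6.91 and 7.59 FPKM in KO. The WT libraries lay further apart than the genotype means, and in FPKM both KO libraries fell between them. Its log2 fold change was 0.08 ± 0.11 (SE), with a 95% interval from -0.14 to 0.30 (edgeR adjusted p = 0.880). As a fold, that interval runs from 0.905 to 1.23. Without WT replicate 1 the log2 fold change was -0.07, and without WT replicate 2 it was 0.24. Hmga1 was at 54.4 and 53.4 FPKM in WT and 58.7 and 59.8 FPKM in KO, with both KO libraries above both WT libraries. The log2 fold change was 0.14 ± 0.09, with an interval from -0.04 to 0.32, and it did not pass (edgeR adjusted p = 0.880).

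Hmga1 exceeded Hmga2 by 7.02 to 8.81 times in FPKM, in all 4 libraries. That ratio depends on the gene lengths used. The deposited lengths are 2125 bases for Hmga1 and 6772 for Hmga2, whose principal transcripts have 2001 and 3710 bases. Hmga1b, a near-identical gene with 259 to 309 counts, can share reads with Hmga1, so the split between them is uncertain. With the counts of Hmga1b added, a comparison chosen after the data were seen, the log2 fold change of Hmga1 was 0.12 (edgeR adjusted p = 0.885). Exons of Hmga1 also overlap AI413582 on the other strand, which had 156 to 219 counts against 1979 to 2287 for Hmga1. Strand was not kept by the library kit, and such a pair of genes cannot be resolved from its reads. The same limit holds for Igf2bp3 with Malsu1 (331 to 379 counts) and, with at most 26 counts in the partner, for Hmga2 with 1700006J14Rik and Igf2bp1 with Gm29202. It also holds for Lin28a with Gm13061 and Trim71 with C130032M10Rik, where the partner had 0 counts in every library.

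The Igf2bp genes encode RNA-binding proteins of the IMP family, which bind mRNAs such as that of Igf2 and are mostly fetal in expression. Igf2bp1 was at 1.66 and 1.57 FPKM in WT and 1.27 and 1.29 FPKM in KO. The lower WT library stood above both KO libraries, and the replicates of each genotype lay close together. The log2 fold change was -0.33 ± 0.15, with an interval from -0.64 to -0.03 (unadjusted p = 0.0351, adjusted p = 0.880, both from edgeR).

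Igf2bp3 was at 13.5 and 13.0 FPKM in WT and 12.0 and 11.4 FPKM in KO, again without overlap. The log2 fold change was -0.18 ± 0.09, with an interval that ended just below 0 (unadjusted p = 0.0498, adjusted p = 0.880, both from edgeR). Igf2bp2, the member of the family that persists best in adult tissues, was at 11.0 and 11.3 FPKM in WT and 11.3 and 11.4 FPKM in KO. Its log2 fold change was 0.03 ± 0.09, with an interval from -0.16 to 0.21. Igf2bp2 made up 41.9% and 43.6% of the summed FPKM of the 3 genes in WT and 46.0% and 47.3% in KO. Igf2bp3 made up 51.7% and 50.3% in the WT libraries, against 48.8% and 47.4% in the KO libraries, and the share of Igf2bp1 was 5.20% to 6.36% over all libraries. In the authors' deposited table the log2 fold changes were -0.34 for Igf2bp1, -0.19 for Igf2bp3 and 0.02 for Igf2bp2, each with an adjusted p of 1.00. The difference between the 3 genes in their response was not tested.

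Trim71, Nr6a1 and Igf1r are targets of let-7 with other roles. Trim71 (LIN41), an RNA-binding ubiquitin ligase of early progenitors, gave 40 and 46 counts in the WT libraries, against 59 and 38 in the KO libraries. The KO libraries enclosed the WT libraries, and the log2 fold change of 0.18 ± 0.29 had an interval from -0.42 to 0.77. Without KO replicate 1 it was -0.19. Nr6a1 gave 163 and 156 counts in the WT libraries, against 143 and 168 in the KO libraries, likewise with the WT libraries inside the KO range, and a log2 fold change of -0.03 ± 0.18 that was 0.06 without KO replicate 1. Igf1r, the receptor tyrosine kinase for insulin-like growth factors, was at 9.98 and 8.90 FPKM in WT and 9.71 and 8.26 FPKM in KO. In each genotype the first replicate was higher, by a ratio of 1.12 in WT and 1.18 in KO. The ratio of the KO mean to the WT mean, 0.951, was closer to 1 than either of these. The log2 fold change of Igf1r was -0.07 ± 0.09, with an interval from -0.26 to 0.12, and it was 0.01 without WT replicate 1 and 0.04 without KO replicate 2. All 3 had edgeR adjusted p-values of 0.880 to 0.980.

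**Figure D3:**
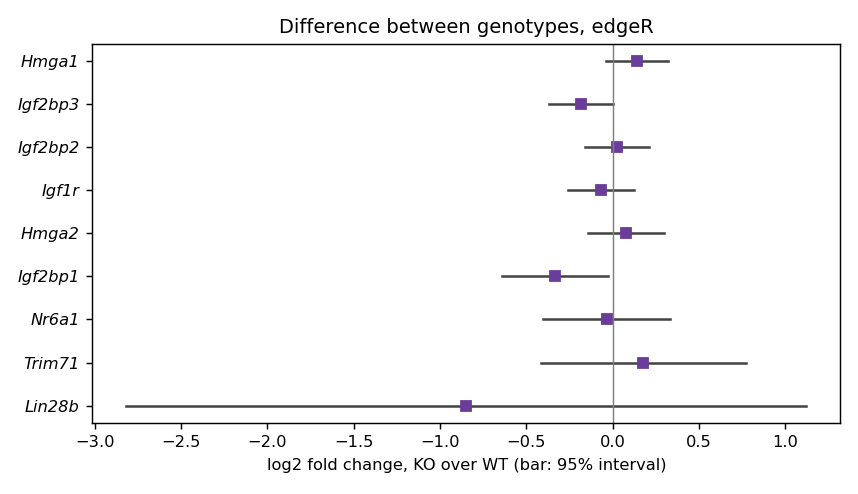
Log2 fold change of KO over WT with its 95% interval from edgeR for 9 genes, ordered by level from Hmga1 at the top to Lin28b at the bottom, without Lin28a, which had 1 count per library. The interval of Igf2bp1 runs from -0.64 to -0.03 and that of Lin28b from -2.82 to 1.12, and no gene passed after adjustment.

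Genes that make, trim and use let-7 were next counted as context. Of 23 such genes 22 had counts and all 22 had a mean of at least 1 FPKM, while Dgcr8 was listed at 0. That entry does not tell an absent transcript from reads that were not assigned to the gene, and this was not tested. No gene passed in either direction, 7 log2 fold changes were positive and 15 negative, and the median was -0.09, beside 0.01 over all 12997 entries at that level. The KO libraries lay below the WT libraries in 9 of the 22 and above in 1, beside 17.0% and 19.8% of the entries at that level. Tnrc6b, a scaffold of the silencing complex, had the smallest p, with 3515 and 3022 counts in the WT libraries, against 2840 and 2482 in the KO libraries. Its log2 fold change was -0.29 ± 0.09 (edgeR adjusted p = 0.759). Ago1, an Argonaute protein, was at -0.24 ± 0.09 and Dicer1, the enzyme that cuts the hairpin, at -0.16 ± 0.09 (edgeR adjusted p = 0.880 for each). Hnrnpa1, the gene of highest level in the list at 338 FPKM, was at 0.08 ± 0.08. Tut4 (0.01 ± 0.10), Tut7 (-0.10 ± 0.09) and Dis3l2 (0.03 ± 0.11), which tail and degrade let-7 precursors held by LIN28A, were all expressed where Lin28a itself was at 1 count. Ago1, Dicer1, Tut4, Tut7 and Dis3l2 are named outside the naming rule, after their values were seen.

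Entries for the let-7 precursors gave almost no reads. Of 11 entries named Mirlet7, 10 had 0 counts in every library and Mirlet7g had 1 count in WT replicate 1 and 1 in KO replicate 1. Mir98 had 2 counts, both in KO replicate 1. Mir100hg, the long noncoding host transcript of a cluster that includes let-7a-2, gave 2115 and 2076 counts in the WT libraries, against 1878 and 1546 in the KO libraries. Its log2 fold change was -0.29 ± 0.10 (edgeR adjusted p = 0.844), and the KO libraries were below the WT libraries. Mir99ahg, which hosts let-7c-1, was at -0.01 ± 0.18. A host transcript is not a measure of the mature microRNA.

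Other known let-7 targets did not shift to 1 side. Of 20 genes none passed, 9 log2 fold changes were positive and 11 negative, and the median was -0.03, beside 0.00 over all entries tested. The KO libraries lay above the WT libraries in 4 of the 20 and below in 5, beside 15.3% and 15.1% of all entries. Of the 20 genes, 18 had a mean of at least 1 FPKM, and among all entries at that level the shares were 19.8% and 17.0%. Ccnd1, a G1 cyclin and the highest of them at 265 FPKM, was at 0.12 ± 0.08. Nr2e1 (TLX), a nuclear receptor that maintains neural stem cells, gave 793 and 806 counts in the WT libraries, against 648 and 640 in the KO libraries. Both KO libraries were lower, with a log2 fold change of -0.31 ± 0.10 (edgeR adjusted p = 0.813).

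In the insulin-like growth factor axis around Igf1r, Igf1 and Igf2 had a mean below 1 FPKM, and Igf2r, Insr and 4 of the 5 binding protein genes listed had a mean above it. The exception was Igfbp6, with 23 and 7 counts in the WT libraries, against 21 and 8 in the KO libraries. Igf2, the mRNA after which the Igf2bp genes are named, gave 4 and 1 counts in the WT libraries, against 1 and 3 in the KO libraries, and Igf1 had 42 to 45 counts in each library. Insr, the insulin receptor, and Igf2r, which takes up IGF2, were at a mean of 10.9 and 14.0 FPKM beside 9.21 FPKM for Igf1r. Of the 14 genes none passed, 7 were positive and 7 negative, and the median was -0.01, beside 0.00 over all entries tested. The KO libraries lay above the WT libraries in 4 of the 14 and below in 3, beside 15.3% and 15.1% of all entries. Of the 14 genes, 10 had a mean of at least 1 FPKM, and among all entries at that level the shares were 19.8% and 17.0%. Igfbp2, a binding protein that sequesters insulin-like growth factors, was the highest at 739 FPKM and had the smallest p of the list. It had 23694 and 20612 counts in the WT libraries, against 24960 and 27689 in the KO libraries, with a log2 fold change of 0.25 ± 0.08 (edgeR adjusted p = 0.672). Insr, Igf1, Igf2, Igf2r and Igfbp6 are named outside the naming rule, after their values were seen.

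Among the other high mobility group genes, none of 8 passed, and 5 were positive and 3 negative. The median was 0.07, beside 0.01 over all entries with a mean of at least 1 FPKM. Hmgb2, a chromatin protein of dividing cells, was highest at 164 FPKM with 0.09 ± 0.09, and Hmgb1, at 0.13 ± 0.09, had the smallest p. None of the 8 had KO and WT libraries that did not overlap, beside 19.8% of entries with a mean of at least 1 FPKM that were higher in KO and 17.0% that were lower.

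Cdkn2a, which encodes the cell cycle inhibitors p16 and p19 and is known to be held down by Hmga2 in fetal neural stem cells, gave 336 and 502 counts in the WT libraries, against 579 and 614 in the KO libraries. Both KO libraries were above both WT libraries, and WT replicate 1 was the lowest of the 4. The log2 fold change was 0.51 ± 0.14 and did not pass (unadjusted p = 0.00118, adjusted p = 0.417, both from edgeR). Its neighbour Cdkn2b gave 462 and 370 counts in the WT libraries, against 556 and 450 in the KO libraries, which overlap, and stood at 0.28 ± 0.13 (edgeR adjusted p = 0.880). In the same libraries Hmga2 mRNA was at 0.08 ± 0.11, and its sign turned without WT replicate 1. A link between Hmga2 and Cdkn2a in these cultures was not tested.

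**Figure D4:**
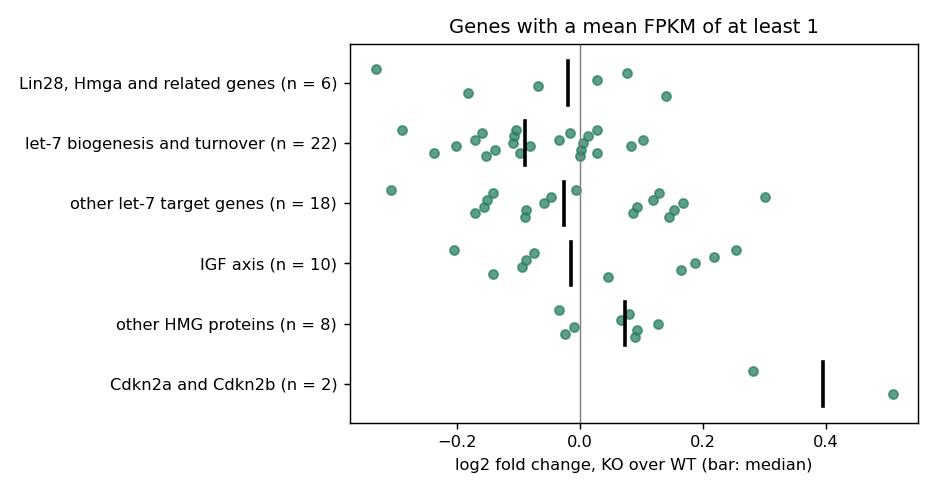
Log2 fold change of KO over WT for each gene with a mean of at least 1 FPKM, 1 point per gene and 1 row per list, with a black bar at the median. The let-7 biogenesis list has its median at -0.09 over 22 genes, and Cdkn2a is the point at 0.51, and none of the plotted genes passed the test.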

How the data were processed

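The authors deposited 1 table with raw read counts per gene for 4 libraries. It also holds FPKM values, which per the file headers are per gene and library. The authors' own comparison is deposited there too, as mean signal by genotype, log2 fold change and p-value, raw and adjusted. The submitters' processing notes name mm10 as the build and Cufflinks 2.2.1, TopHat2 2.1.1 and cutadapt 1.16 as tools. The sources used here name neither the read counter nor the annotation release. Gene coordinates of the 10 genes equal those of GENCODE M21.

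Counts were tested with edgeR 4.0.16 in R 4.3.3 (TMM scaling, genotype as the only factor, all 29222 entries with at least 1 count, two-sided, threshold 0.05 after Benjamini-Hochberg adjustment). Residual degrees of freedom were 2 and prior degrees of freedom 25.0. The SE is the size of the log2 fold change divided by the square root of F. With 2 libraries a group, exact permutation reaches no p below 0.333 and was not used. Alternatives used DESeq2 1.42.0 and limma 3.58.1. Within each genotype the 2 libraries were not duplicates: chi-square over its degrees of freedom was 6.21 between the WT and 7.04 between the KO libraries. Pairs across genotypes were not compared in this way. The steps were tested on simulated data. A further cortical marker is not reported here.

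The genes and lists were chosen with earlier results of these data known. Besides the 10 genes, the naming rule takes from each context list the genes past the threshold, or else those of highest mean FPKM and of smallest p. Seed matches were searched in the principal transcript of best annotated rank, and in the longest where several shared that rank.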

Additional observations from a re-analysis of the deposited data

How the results depend on the processing

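No call was made among the 10 genes in any of 13 settings, of which the mean FPKM filter tested only 6 of them and filterByExpr 8. The number of all entries called, 31, was 13 in DESeq2, 9 with a mean FPKM of at least 1, 10 with filterByExpr, 1 in limma on log2(FPKM + 1), 3 in limma on log2(FPKM + 0.1), and 7 to 17 with 1 library left out. It was 61 when Hmga1b was added to Hmga1, where the prior degrees of freedom went from 25.0 to 50.7. With the replicate number as a block it was 289, and 6 context genes were called (Ago1, Tnrc6b, Nr2e1 and Mir100hg lower, Igfbp2 and Cdkn2a higher), against 0 without the block. The numbers are not known to pair the libraries. Same-numbered deviations from the group means correlated at 0.14 across 12997 genes, and that fit has 1 residual degree of freedom and estimated no spread of dispersion between genes (infinite prior degrees of freedom). The median log2 fold change of the 10 genes, -0.02, was -0.031 over the 6 with a mean FPKM of at least 1, and -0.0996 to 0.0116 with 1 library left out. With 1 library left out, Hmga2 ranged from -0.0726 to 0.235, negative without WT replicate 1, and Trim71 from -0.193 to 0.475, negative without KO replicate 1. Nr6a1 ranged from -0.136 to 0.0614, positive without KO replicate 1, and Igf1r from -0.187 to 0.0415, positive without WT replicate 1 or KO replicate 2. Hmga1, Igf2bp1, Igf2bp2, Igf2bp3 and Lin28b kept their sign in every setting that tested them. Igf2bp2 was at 0.000584 without WT replicate 1. The KO and WT libraries of Hmga1, Igf2bp1, Igf2bp3 and Lin28b did not overlap, so leaving out 1 library could hardly turn their sign. Lin28a and Lin28b are limited by depth.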
